A study of Mus musculus with 24 samples.

Results

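The levels of 9 myelin genes of mature oligodendrocytes, the cells that wrap axons of the central nervous system, were followed in the mouse hippocampus. The genes are Mbp, Mobp, Mal, Cldn11, Mag, Mog, Cnp, Ugt8a and Opalin. They were taken by name from the 21793 genes of the deposited table, and all 9 were among the 14162 genes kept for testing (a normalised count of at least 10 in at least 3 libraries). Polyadenylated RNA had been sequenced from 24 hippocampi of female mice, 1 library per hippocampus. The mice were 3 months old at the start and ate 1 of 3 diets for 6 months. The WT mice were of strain B6129SF2/J, in 4 libraries on control diet, 4 on ketogenic diet and 4 on the diet enriched in medium-chain triglycerides (MCT). The 3xTg-AD mice gave 3, 5 and 4 libraries on the same diets. As background to the strain, 3xTg-AD mice carry human APP and MAPT transgenes with disease mutations, both driven by a Thy1 cassette that is active in neurons; its other allele is not described here. The sources used here do not say whether the WT mice were littermates. The control diet (4.1 kcal/g) held 70% carbohydrate, 20% long-chain triglycerides and 10% protein. The MCT diet held 10% medium-chain and 10% long-chain triglycerides with the same carbohydrate and protein, and the energy was again 4.1 kcal/g. The ketogenic diet held no carbohydrate, 90% long-chain triglycerides and 10% protein, at 6.7 kcal/g.

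Mouse Thy1, whose sequence drives the transgenes, served as the check of the genotype labels. In 21 libraries it lay between 6952 and 8137 normalised counts with the WT label and between 20385 and 29277 with the 3xTg label. The 3 remaining libraries went against their labels in Thy1 and in App. They are the library labelled WT on MCT diet, replicate 2 (Thy1 at 23048), and the libraries labelled 3xTg on control diet, replicate 3 (9189), and on ketogenic diet, replicate 1 (8112). Results are given over all 24 libraries as labelled, and those of the members also over the 21 whose Thy1 fits the label where the 2 sets differ in a call, a sign or clearly in size, the second being a choice made after seeing the data. The recovered depth was 10078435 to 25810846 reads per library, except for the library labelled 3xTg on ketogenic diet, replicate 2, with 2653427.

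Myelin is a spiral of oligodendrocyte membrane pressed together in layers. Myelin basic protein (Mbp) and the smaller Mobp hold the cytoplasmic faces of the layers together, Mal is a membrane protein that helps sort myelin components, and claudin 11 (Cldn11) forms the tight junctions between the turns. Mag lies in the innermost turn facing the axon, Mog on the outermost surface, and the enzyme Cnp in the cytoplasm-filled channels. Ugt8a makes galactosylceramide, a main lipid of myelin, and Opalin is a membrane protein of the paranodal loops found almost only in oligodendrocytes. Transcription of these genes is driven in the maturing cell mainly by the factors SOX10 and MYRF.

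Per kilobase of exon, Mbp was the most abundant of the 9 and Opalin the least. The mean normalised count per kilobase over 24 libraries was 3337 ± 446 (SD) for Mbp, 1827 ± 270.4 for Mobp, 1229 ± 183 for Mal, 1016 ± 139 for Cldn11 and 764 ± 107 for Cnp. It was 311 ± 40.8 for Mag, 306 ± 56.1 for Mog, 184 ± 19.1 for Ugt8a and 54.2 ± 24.9 for Opalin. The order held within every library for each pair of neighbours but one: Mag stood above Mog in 15 of 24 libraries, so these 2 do not differ beyond their spread. The lengths are the union of all annotated exons of a gene, and transcripts cannot be told apart in these gene-level values, which matters most for Mbp with its 16 annotated transcripts.

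The stretches upstream of the start of 5 members are shown because Cldn11, Mobp and Opalin are the genes on which the genotype comparison turns, and because Mog and Cnp followed each other most closely among the members that Opalin also followed. RefSeq windows (GRCm38.p6) of 250 bases before the start were at hand for 8 of the 9 members, all but Mbp. Bases that a GENCODE transcript covers were left out of the print, 35 each for Mobp and Cnp. Capitals mark matches, on either strand, to CTGGCAC or CTGGTAC, the core bound by MYRF, and to ACAAAG or ACAATG, cores bound by SOX factors. No marked match overlaps another.
Cldn11, plus strand, chr3:31149670-31149919: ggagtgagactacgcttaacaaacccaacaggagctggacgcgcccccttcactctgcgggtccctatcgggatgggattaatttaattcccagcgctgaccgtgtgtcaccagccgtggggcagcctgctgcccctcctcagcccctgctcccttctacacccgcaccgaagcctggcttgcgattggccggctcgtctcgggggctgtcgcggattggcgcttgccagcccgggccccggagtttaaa
Mobp, plus strand, chr9:120149492-120149706: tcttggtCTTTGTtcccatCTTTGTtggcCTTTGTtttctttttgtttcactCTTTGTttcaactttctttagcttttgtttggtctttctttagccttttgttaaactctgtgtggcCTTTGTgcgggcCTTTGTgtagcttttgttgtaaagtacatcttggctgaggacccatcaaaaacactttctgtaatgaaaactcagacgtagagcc
Opalin, minus strand, chr19:41077114-41077363: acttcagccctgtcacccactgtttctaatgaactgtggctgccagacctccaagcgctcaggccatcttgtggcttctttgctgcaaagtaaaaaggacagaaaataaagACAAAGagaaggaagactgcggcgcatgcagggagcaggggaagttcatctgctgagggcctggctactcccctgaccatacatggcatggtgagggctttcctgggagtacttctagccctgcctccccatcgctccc
Mog, minus strand, chr17:37023399-37023648: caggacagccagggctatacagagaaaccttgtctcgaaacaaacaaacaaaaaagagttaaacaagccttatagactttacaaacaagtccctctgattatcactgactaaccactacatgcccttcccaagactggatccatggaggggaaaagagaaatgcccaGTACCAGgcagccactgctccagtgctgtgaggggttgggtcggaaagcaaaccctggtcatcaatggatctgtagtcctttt
Cnp, plus strand, chr11:100574689-100574903: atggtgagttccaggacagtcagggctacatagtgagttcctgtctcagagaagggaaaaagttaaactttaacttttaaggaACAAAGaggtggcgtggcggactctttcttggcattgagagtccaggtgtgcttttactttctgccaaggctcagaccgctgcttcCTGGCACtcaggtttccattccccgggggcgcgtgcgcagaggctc

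The MYRF core was present in 3 of the 8 windows (Mog, Mag and Cnp), against 5.93% of the 32851 windows in the RefSeq table. The SOX core was present in 4 of the 8 (Mag, Mobp, Cnp and Opalin), against 25.2% of all windows. Mobp held 6 SOX cores between 243 and 115 bases before its start, all of them ACAAAG read on the opposite strand. Opalin held 1, at 139 to 134 bases before its start. The windows of Cldn11, Mal and Ugt8a held neither core. These letters were searched after the windows had been seen, and a match is a description of the sequence only.

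Between the genotypes, averaged over the 3 diets, 8 of the 9 members had a positive 3xTg minus WT difference, and the called ones, Cldn11 and Mobp, were each 1.17-fold higher in 3xTg. Opalin stood on the other side of zero. It missed the threshold over 24 libraries and was called lower, at 0.553 of the WT level, over the 21 libraries whose Thy1 fits the label. In limma with Benjamini-Hochberg adjustment, 2 of 9 members were called higher and 0 lower, against 3.71% of all tested genes called higher, 4.38% called lower and 8.1% called in either direction. The median difference of the members was 0.12 on the log2 scale and that of all tested genes -0.0008. In the 21 libraries the median of the members was 0.04 and 5 of 9 were positive. Over 21 libraries 1 member was called higher and 1 lower, where 6.31% of all tested genes were called higher, 6.84% lower and 13.2% in either direction. In bulk tissue, fewer cells of a type and less RNA per cell cannot be told apart.

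**Figure D1:**
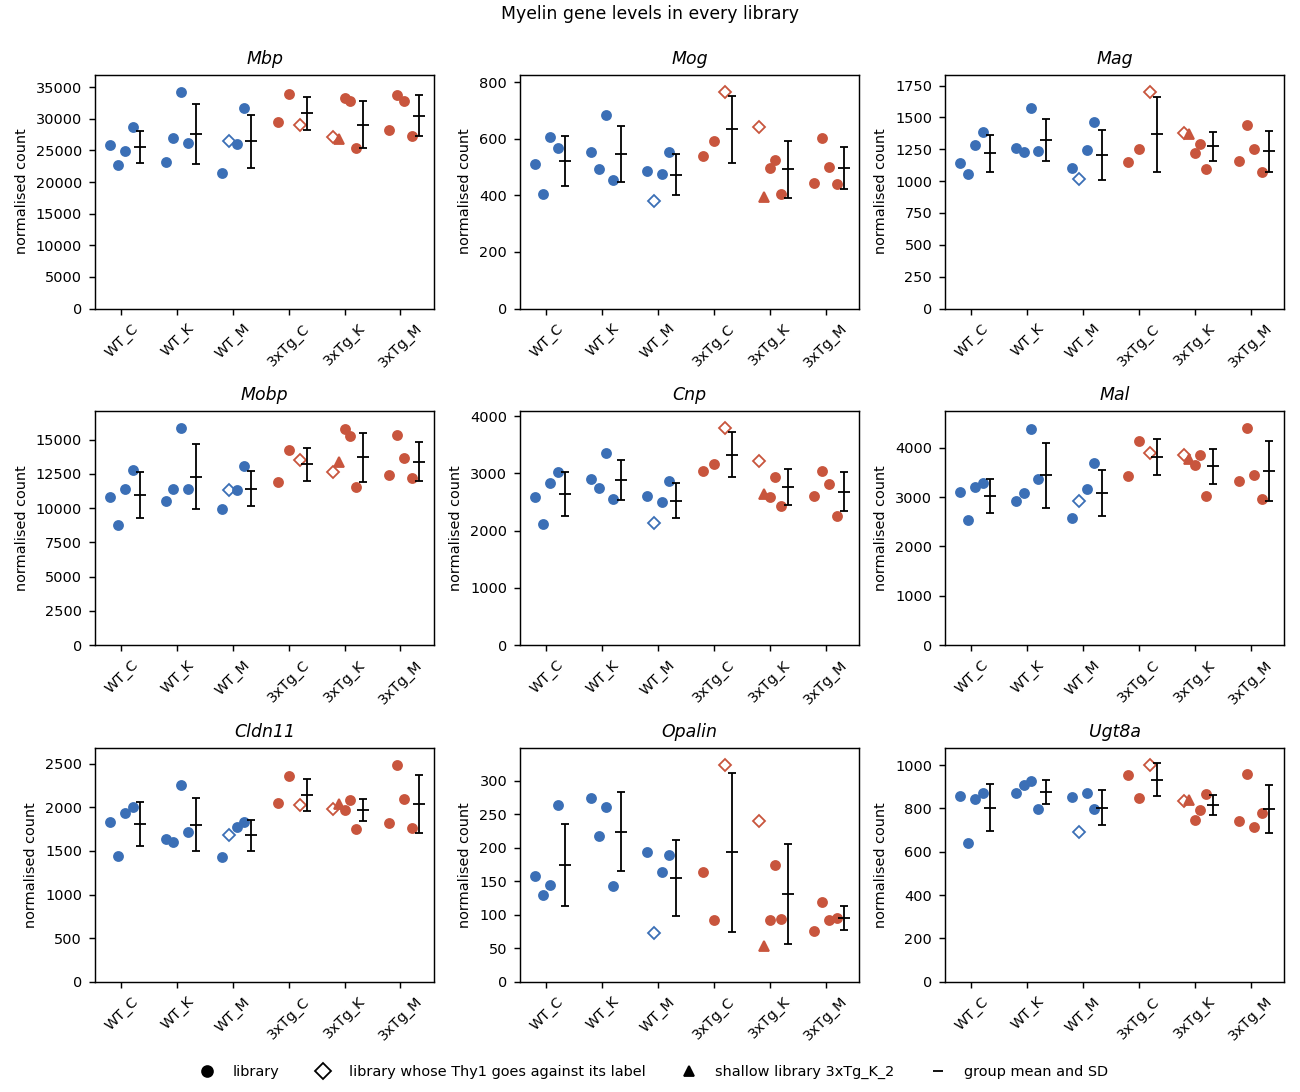
Normalised count of each of the 9 myelin genes (vertical axes, linear, from 0) in every library of the 6 groups (C control, K ketogenic, M MCT diet). Bars give the group mean and SD, open diamonds the 3 libraries whose Thy1 goes against the label, and the triangle the shallow library; in the Opalin panel the 4 libraries labelled 3xTg on MCT diet lie between 76.5 and 119.6.

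Cldn11, the tight junction protein, had normalised counts of 1836, 1447, 1935 and 2006 in the WT libraries on control diet, 1634, 1599.8, 2252 and 1722 on ketogenic diet, and 1432, 1687, 1774 and 1834 on MCT diet. In the libraries labelled 3xTg it had 2046, 2357 and 2023 on control diet, 1983, 2037, 1974, 2088 and 1757 on ketogenic diet, and 1818, 2484, 2099 and 1758 on MCT diet. The genotypes overlapped, with 10 of 12 libraries labelled 3xTg above the WT mean and 2 above the highest WT library. The averaged difference was 0.22 ± 0.07 (log2, SE), 1.17-fold, at an adjusted p of 0.0391 in limma. In the 21 libraries it was 0.23 ± 0.08 at an adjusted p of 0.0429 in limma. Without the shallow library as well, over 20 libraries, it missed the threshold at an adjusted p of 0.0642 in limma, and 11 of the 24 omissions of a single library also ended the call.

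Mobp, of the cytoplasmic side of compact myelin, had 10808, 8769, 11373 and 12813 normalised counts in the WT libraries on control diet, 10538, 11424, 15811 and 11386 on ketogenic diet, and 9965, 11337, 11292 and 13078 on MCT diet. It had 11872, 14218 and 13502 in the libraries labelled 3xTg on control diet, 12613, 13348, 15793, 15256 and 11563 on ketogenic diet, and 12414, 15355, 13648 and 12189 on MCT diet. All 12 libraries labelled 3xTg lay above the WT mean, yet the highest value of all was in a WT library, replicate 3 on ketogenic diet. The averaged difference was 0.23 ± 0.07 (log2, SE), 1.17-fold, at an adjusted p of 0.0485 in limma. Over 21 libraries the difference kept its size, 0.23 ± 0.08, but missed the threshold at an adjusted p of 0.0643 in limma.

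Mbp, the main protein that compacts myelin, ranged from 21484 over a median of 26089 to 34263 normalised counts in the 12 libraries labelled WT, and from 25320 over 29314 to 33929 in the 12 labelled 3xTg. Of the latter, 11 were above the WT mean, while the top of both ranges was alike. Its difference of 0.19 ± 0.07 (log2, SE) missed the threshold at an adjusted p of 0.0861 in limma. Mal ranged from 2528 over 3131 to 4383 in WT and from 2970.3 over 3706 to 4391 in 3xTg, with 10 of 12 libraries labelled 3xTg above the WT mean. Its difference of 0.20 ± 0.07 missed the threshold at an adjusted p of 0.0820 in limma. Over 21 libraries the adjusted p was 0.0736 for Mbp and 0.152 for Mal in limma.

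The proteins of the inner and outer surface, the channel enzyme and the lipid enzyme showed smaller differences. Cnp stood at 0.12 ± 0.07 (log2, SE) with an adjusted p of 0.274, Mog at 0.06 ± 0.09 with 0.727, Mag at 0.05 ± 0.07 with 0.750 and Ugt8a at 0.04 ± 0.06 with 0.745, all in limma. Their ranges in the 2 genotypes overlapped over most of their length: Mag, for example, ranged from 1016 over 1239 to 1572 normalised counts in WT and from 1071 over 1255 to 1700.1 in 3xTg. In the 21 libraries the differences were 0.04 ± 0.06 for Cnp, -0.05 ± 0.08 for Mog, -0.05 ± 0.07 for Mag and -0.01 ± 0.06 for Ugt8a. The sign of Mog, Mag and Ugt8a thus turned, on values that were within 1 SE of zero in both.

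Opalin was the member with the widest spread. It had 158, 130.3, 145 and 264 normalised counts in the WT libraries on control diet, 275, 217, 260.2 and 143 on ketogenic diet, and 194, 72.8, 164 and 189 on MCT diet. In the libraries labelled 3xTg it had 164, 91.8 and 323 on control diet, 239.7, 54.0, 92.6, 174 and 94.2 on ketogenic diet, and 76.5, 119.6, 92.0 and 94.9 on MCT diet. The lowest value with a WT label, 72.8, and the 2 highest with a 3xTg label, 323 and 239.7, came from the 3 libraries whose Thy1 goes against the label. The value of 54.0 came from the shallow library and rests on 10 reads, where the other libraries had 66 to 339 reads of Opalin.

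Over all 24 libraries Opalin differed by -0.50 ± 0.22 (log2, SE) at an adjusted p of 0.166 in limma, with 10 of 12 libraries labelled 3xTg below the WT mean. Over the 21 libraries it fell by 0.85 ± 0.17 on the log2 scale, to 0.553 of the WT level, at an adjusted p of 0.00187 in limma. There the mean was 195 ± 52.6 (SD, n = 11) in WT and 105.4 ± 37.5 (SD, n = 10) in 3xTg. All 10 libraries with the 3xTg label lay below the WT mean and 8 of them below the lowest WT library, while 5 of 11 WT libraries lay below the highest 3xTg one. Without the shallow library as well, over 20 libraries, the difference was -0.76 at an adjusted p of 0.00241 in limma. The quasi-likelihood test of edgeR on the recovered reads of the 21 libraries gave -0.80 at an adjusted p of 0.00167.

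**Figure D2:**
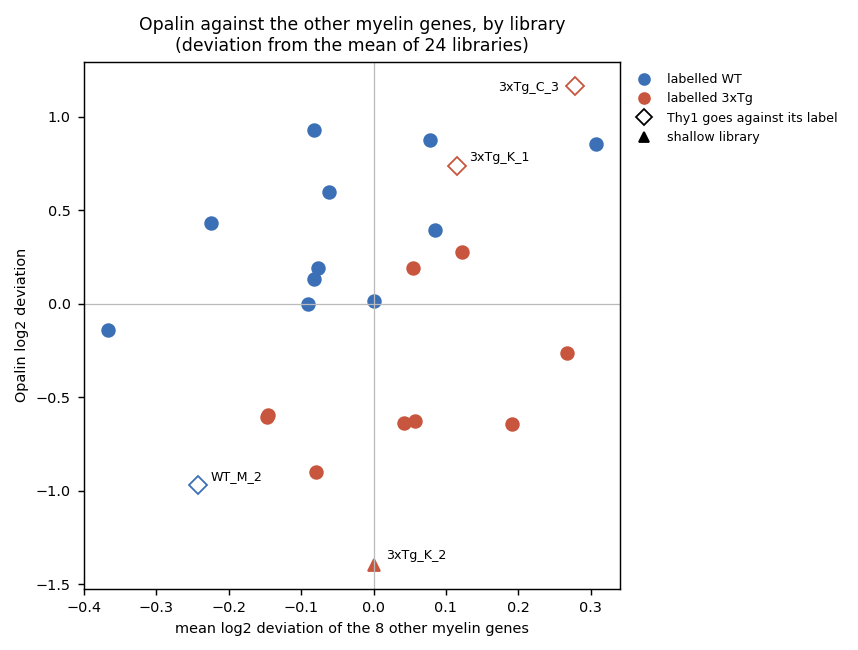
Opalin (vertical) against the mean of the 8 other myelin genes (horizontal), both as log2 deviations from the mean of 24 libraries, 1 point per library. Blue is labelled WT and red labelled 3xTg; of the open red diamonds, 3xTg_C_3 lies above every other library at an Opalin deviation of 1.16 and 3xTg_K_1 among the WT libraries at 0.73, while the open blue diamond, WT_M_2, lies among the 3xTg ones at -0.97.

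Set against Mbp in the same library, Opalin nearly separated the genotype labels of the 21 libraries. The plot sets Opalin against the mean of the 8 other members, not against Mbp alone. There were 36.8 ± 7.61 (SD, n = 11) Opalin counts per 100 Mog counts in the WT libraries of the 21 and 21.2 ± 6.26 (n = 10) in the 3xTg ones. Per 1000 Mbp counts there were 7.38 ± 2.01 and 3.46 ± 1.15. The lowest WT value of that ratio, 5.49, was below only 1 of 10 3xTg values, 5.56. The 3 libraries left out had 2.74 (labelled WT), 11.1 and 8.86 (labelled 3xTg). Mog per 100 Mbp counts was 2.00 ± 0.257 in WT and 1.62 ± 0.124 in 3xTg over the 21 libraries, a smaller shift with overlap from 1.73 to 1.83. These ratios were chosen after the values had been seen, and no test was made on them.

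Within each diet the genotype difference of the members was less firmly measured, with 3 to 5 libraries a group. On control diet all 9 members were positive over 24 libraries, from 0.02 for Opalin to 0.34 for Cnp with a median of 0.27. None was called by limma, where 0.0565% of tested genes were, and 6 of 9 were under an unadjusted p of 0.05, as were 14.5% of tested genes. Cnp had the smallest adjusted p, 0.223 in limma. On ketogenic diet 5 of 9 were negative, with a median of -0.06, and none was called against 0.155% of tested genes. Opalin alone was under an unadjusted p of 0.05, as were 14.6% of tested genes. On MCT diet 7 of 9 were positive, with a median of 0.09, and none was called against 0% of tested genes. Cldn11 alone was under an unadjusted p of 0.05, as were 7.12% of tested genes. In the 21 libraries 7 of 9 members were positive on control diet (median 0.25), 4 of 9 on ketogenic diet (-0.09) and 5 of 9 on MCT diet (0.01).

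Opalin differed by 0.02 ± 0.42 (log2, SE) on control diet, -0.92 ± 0.37 on ketogenic diet and -0.61 ± 0.38 on MCT diet over 24 libraries. These became -0.44 ± 0.34, -1.18 ± 0.27 and -0.94 ± 0.30 over the 21 libraries, so that the sign was the same on each diet. On ketogenic diet it was called lower at an adjusted p of 0.0152 in limma, the only member called within a diet, where 3.62% of tested genes were called over 21 libraries and 1.85% lower. Without the shallow library, which is one of the 4 3xTg libraries left on that diet, no member was called. Over 21 libraries no member was called on control diet, where 1.74% of tested genes were, or on MCT diet, where 1.77% were. Whether the difference depends on diet was tested as an interaction, given with the diets below.

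**Figure D3:**
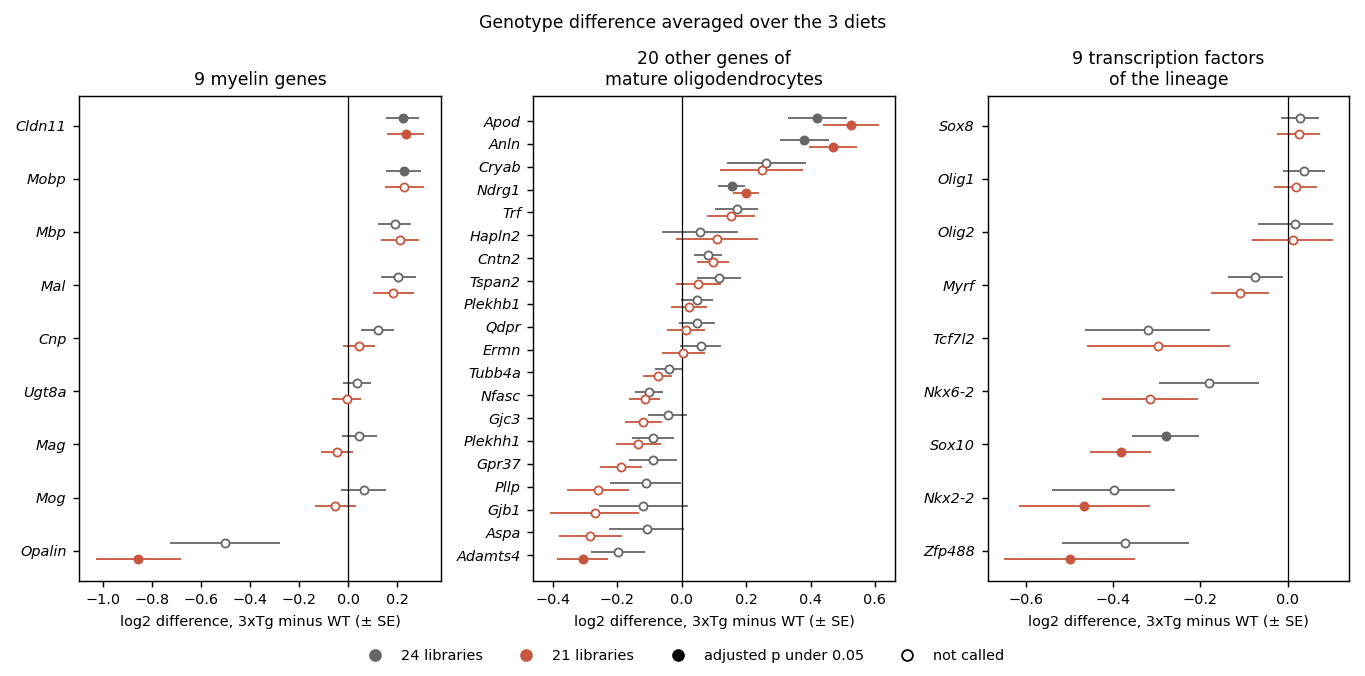
Genotype difference (log2, 3xTg minus WT, averaged over the diets, with SE) of the 9 myelin genes, 20 of the 22 other genes of mature oligodendrocytes and 9 transcription factors of the lineage, over 24 libraries (grey) and 21 libraries (red); filled points have an adjusted p under 0.05. Opalin moves from -0.50 to -0.85 when the 3 libraries are left out, while Cldn11 stays at 0.22 and 0.23.

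The diets did not move any member past the threshold. On ketogenic against control diet 8 of 9 members were positive within WT (all but Cldn11 at -0.01, highest Opalin at 0.37 ± 0.38) and 8 of 9 negative within 3xTg (all but Mobp at 0.05, lowest Opalin at -0.56 ± 0.40). On MCT against control diet 5 of 9 were negative within WT, from -0.21 for Opalin to 0.07 for Mobp, and 8 of 9 within 3xTg, from -0.84 ± 0.42 for Opalin to 0.02 for Mobp. In the 21 libraries MCT against control diet within WT had 7 of 9 positive, from -0.10 for Cldn11 to 0.12 ± 0.30 for Opalin, so that Opalin and the balance of signs turned. In limma 0 of 9 members were called in each of these 4 comparisons, against 0% of tested genes, except for 0.00706% on MCT diet in WT. Members under an unadjusted p of 0.05 numbered 0 on ketogenic diet in WT (4.62% of tested genes), 2 on it in 3xTg (6.69%), 0 on MCT diet in WT (4.79%) and 2 on it in 3xTg (2.67%). The 2 comparisons within 3xTg share the 3 control-diet libraries, 1 of which goes against its label and had the highest Mog (766), Mag (1700.1), Cnp (3783), Opalin (323) and Ugt8a (999.8) of all 24.

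**Figure D4:**
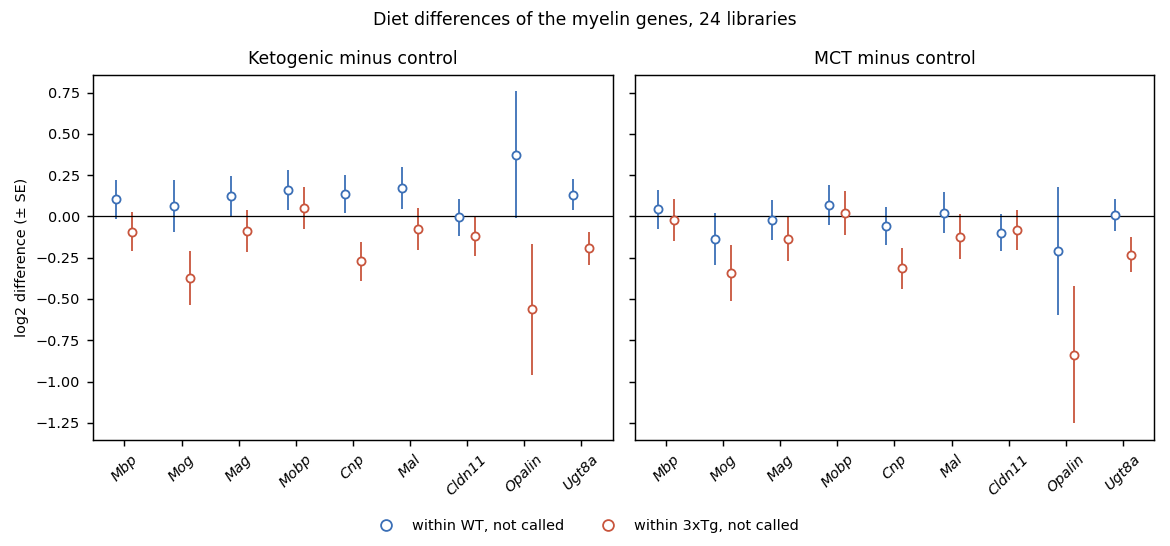
Diet difference (log2, with SE) of each myelin gene within WT (blue) and within 3xTg (red) over 24 libraries, ketogenic minus control on the left and MCT minus control on the right. No point is called; within 3xTg the largest departures are those of Opalin, -0.56 and -0.84.

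Cnp within 3xTg stood at -0.27 ± 0.12 on ketogenic and -0.31 ± 0.12 on MCT diet against control (log2, SE), at adjusted p of 0.724 and 0.999 in limma. Mog stood at -0.37 ± 0.16 and -0.34 ± 0.17, at adjusted p of 0.724 and 0.999 in limma. With 2 control-diet libraries left in 3xTg, over the 21 libraries, the Opalin differences within 3xTg shrank to -0.36 ± 0.34 on ketogenic and -0.37 ± 0.34 on MCT diet, and 2 of 9 members (Mag and Mobp) were positive in each. Ketogenic against MCT diet gave 9 of 9 positive differences within WT, from 0.06 for Mbp to 0.58 ± 0.38 for Opalin, and 6 of 9 within 3xTg, from -0.07 for Mbp to 0.27 ± 0.37 for Opalin; in the 21 libraries Opalin stood at 0.26 ± 0.30 and 0.01 ± 0.27. None was called, against 0.00706% and 0% of tested genes, and 0 were under an unadjusted p of 0.05, against 3.57% and 3.43%. Averaged over the genotypes, ketogenic against control diet ranged from -0.15 for Mog to 0.11 for Mobp and MCT against control from -0.52 ± 0.28 for Opalin to 0.04 for Mobp, with 0 of 9 called against 0% of tested genes in both. Of these, 0 and 2 were under an unadjusted p of 0.05, the latter Cnp and Mog, against 4.99% and 4.24% of tested genes. The averaged MCT difference of Opalin was -0.13 ± 0.22 in the 21 libraries. Its averaged ketogenic difference was -0.09 over 24 libraries and turned slightly positive in the 21. For that diet 4 of 9 members were positive in each set, though not the same ones.

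The interaction, the diet difference in 3xTg minus that in WT, was negative for all 9 members under the ketogenic diet, from -0.11 for Mobp to -0.94 ± 0.55 for Opalin, with a median of -0.25. Under the MCT diet it was negative for 8 of 9, from -0.63 ± 0.57 for Opalin to 0.02 for Cldn11. In the 21 libraries Opalin stood at -0.74 ± 0.43 and -0.49 ± 0.45, and all 9 members were negative under both diets. In limma 0 of 9 members passed in either, against 0% of tested genes. The smallest adjusted p was 0.724, of Ugt8a and Cnp under the ketogenic diet, and 2 members were under an unadjusted p of 0.05 there (6.68% of tested genes) and 0 under the MCT diet (2.78%). Both interactions rest on the same control-diet libraries. A genotype difference of Opalin that varies with diet was not shown, and its standard error was wide.

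Across libraries of the same group the members varied together to different degrees. After removal of the group means, Pearson's r of the log2 values over 24 libraries ran from 0.055 (Mbp with Ugt8a) to 0.934 (Mal with Cldn11) over the 36 pairs, with a median of 0.617. Mbp with Mobp reached 0.922 and Mog with Cnp 0.926. Opalin was nearest to Mog (0.770) and far from Mbp (0.086). Over the 21 libraries, with means taken anew, the range was 0.113 to 0.959 and the median 0.751, and Opalin stood at 0.586 with Mog and 0.325 with Mbp. The points share the library, its depth and its scaling, so these are descriptions with no test. The SD that remained within groups was 0.63 on the log2 scale for Opalin and 0.15 (Ugt8a) to 0.25 (Mog) for the 8 others.

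**Figure D5:**
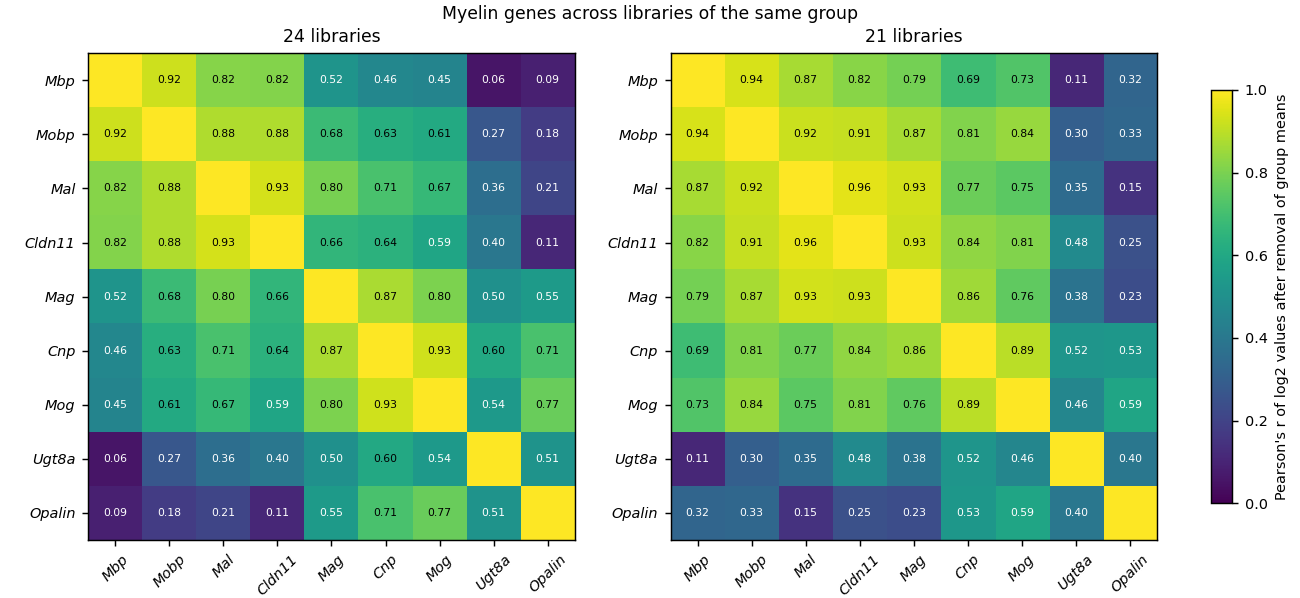
Pearson's r of log2 values after removal of the group means for each pair of the 9 myelin genes, over 24 libraries (left) and 21 libraries (right), on a colour scale from 0 to 1. Mbp, Mobp, Mal and Cldn11 form a block of high r, and Ugt8a and Opalin have the lowest median r with the other members, 0.450 and 0.362 over 24 libraries.

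The library labelled WT on ketogenic diet, replicate 3, had the highest mean of the 8 members other than Opalin, 0.31 above the mean of all libraries on the log2 scale, and WT on control diet, replicate 2, had the lowest, -0.37. Outside the members, the 10 genes most like them by mean r with the 9 over 24 libraries included Ermn (0.729), Plekhb1, Qdpr, Csrp1, Bcas1, Tspan2, Gatm, Ccdc153 and Pls1 (0.657). Of the 10 genes 8 were also among the 10 most like over the 21 libraries. Among all 14162 tested genes ranked the same way, Cnp was at rank 5, Mal 10, Mag 11, Mog 12, Mobp 17 and Cldn11 18. Mbp stood at rank 129, Ugt8a at 584 and Opalin at 671. Over the 21 libraries Cldn11 was at rank 4, Mobp 7, Cnp 8, Mog 9, Mag 13, Mal 15, Mbp 26, Ugt8a 1178 and Opalin 1430.

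Of 22 other genes of mature oligodendrocytes, 4 were called higher in 3xTg over the averaged diets and 0 lower over 24 libraries, with a median of 0.05 (log2). The shares of all tested genes to read this and the following counts of lists against are 3.71% higher and 4.38% lower over 24 libraries, and 6.31% and 6.84% over 21. Among them, Anln, an anillin found in mature myelin, stood at 0.38 ± 0.08, the lipocalin Apod at 0.42 ± 0.09 and Ndrg1 at 0.16 ± 0.04, at adjusted p of 0.00357, 0.00609 and 0.0228 in limma. These 4 remained called over the 21 libraries, where 2 others were called lower, among them the protease Adamts4 at -0.31 ± 0.08.

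Of 9 transcription factors of the lineage, 1 was called lower and 0 higher, with a median of -0.18. It was Sox10, at -0.28 ± 0.08 and an adjusted p of 0.0238 in limma. Over the 21 libraries Sox10 (-0.38 ± 0.07), Nkx2-2 (-0.47 ± 0.15) and Zfp488 (-0.50 ± 0.15) were called lower. Myrf was not called in either set. None of 14 genes of galactolipid and sphingolipid metabolism was called, with a median of 0.03, the smallest adjusted p being that of Sptlc1 at 0.104 in limma; 3456 tested genes, 24.4%, were under an unadjusted p of 0.05 in this comparison.

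Of 10 genes of precursors and newly formed oligodendrocytes none was called over 24 libraries, and over 21 Neu4 was called higher at 0.32 ± 0.08. Of 9 genes known to rise in oligodendrocytes near amyloid or after injury, complement C4b was called higher at 0.40 ± 0.12 and the protease inhibitor Serpina3n lower at -1.30 ± 0.28, at adjusted p of 0.0454 and 0.00526 in limma. Both remained called over 21 libraries, and B2m, a part of the class I antigen complex, was called higher there at 0.28 ± 0.07.

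Some markers of other cells of the dissected tissue were called in the same comparison, though most were not, and their part in the differences of the members was not tested. In the averaged comparison 3 of 8 microglia genes were called higher (C1qa, Tmem119 and C1qb, at 0.26, 0.30 and 0.25) and 2 of 8 astrocyte genes (Gfap and Slc1a3, at 0.24 and 0.10). The 21 libraries added Csf1r (0.18) and Gjb6 (0.24) to these lists. Of the hippocampal principal cell markers, Amigo2 was called higher there (0.22), while C1ql2 (-1.38), Wfs1 (-0.45) and Prox1 (-0.30) were called lower. The summed level ran from 4539 to 6012 normalised counts in WT and 5311 to 6020.1 in 3xTg for microglia, and from 85748 to 104046 and 92469 to 102000.3 for astrocytes. Such a sum weighs the most abundant genes of its list most, as Slc1a2 for astrocytes (median 60211 over 24 libraries) and Camk2a for neurons (49067). Of 10 neuron genes Gad2 was called higher and Rbfox3 and Camk2a lower, with summed levels of 145417 to 164161 in WT and 137058 to 161265 in 3xTg. Of 8 vascular genes Flt1 and Cldn5 were called lower, with sums of 4970 to 6230.1 and 4486 to 5508. Of 6 markers of hippocampal principal cells C1ql2, Prox1 and Wfs1 were called lower, with sums of 6780.2 to 8461 and 5743 to 6935.

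The summed level of the 9 members themselves ran from 39807 over a median of 47307 to 63507 normalised counts in WT and from 46536 over 54399 to 62109 in 3xTg. Mbp, with a median of 27135 over 24 libraries, weighed most in this sum. Of 8 markers of neighbouring striatum and thalamus Rgs9 was called lower at -0.51, with sums of 1237 to 1552 in WT and 1077 to 1374 in 3xTg. None of 8 choroid plexus genes was called, with Kl at -0.25 and Ttr at -1.40, and sums of 630.3 to 13558 and 565 to 979.8. Of 6 genes of Schwann cells, which make peripheral myelin, only Mlip and Pmp22 passed the filter and none was called; the defining Pmp2 was at 0 in every library. Each of the 9 members was detected in every library.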

How the data were processed

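The deposited table gives, per the file headers, 1 column of values for each of 24 libraries. They are normalised counts (a signal in units of scaled reads) that the authors made from reads trimmed with Trimmomatic and aligned with STAR 2.5.1b to GRCm38, per the submitters' processing notes. Which gene counter, scaling method and strand setting were used, and whether the molecular identifiers in the adapters were used, is not given in the sources used here. Every column's values came out as whole multiples of 1 read (within 0.01 of a whole number), from which reads per gene were recovered for the count tests only. This shows gene counts divided by a size factor per library.

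From the deposited normalised counts, log2(value + 1) was fitted with limma 3.58.1 (R 4.3.3) on 14162 genes with at least 10 in at least 3 of 24 libraries, with 6 genotype and diet groups in 1 fit and 14 comparisons. Fold changes are on that scale, which understates changes of low genes. Genes are called at a Benjamini-Hochberg adjusted p under 0.05, over all tested genes. Alternatives used edgeR 4.0.16 and DESeq2 1.42.0. Each library is 1 mouse. The scripts were tested on simulated data. The members, lists, motifs and comparisons were chosen with earlier results of these data known. The naming rule covers all 9 members in each comparison, with up to 4 called genes of each other list; where no member was called, all 9 are counted and mainly the extremes are printed. A few items are not reported here. Labels give groups the same replicate numbers, which did not pair the libraries. Exon lengths and positions are from GENCODE M21. Values after ± are SDs over libraries or SEs of the limma fit, and no interval for read counts is given.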

Additional observations from a re-analysis of the deposited data

Results flagged for a closer look

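In 45 sets of 4 or 5 libraries (9 members in the 5 groups of that size) 4 single values stood far from the rest of their group by Dixon's criterion, which chance meets in about 1 in 20 sets. WT on ketogenic diet, replicate 3, was high in Mag, at 1572 normalised counts with the next library at 1262, and in Mobp, at 15811 with the next at 11424. The library labelled 3xTg on ketogenic diet, replicate 5, was low in Mal, at 3014 with the next at 3646. WT on control diet, replicate 2, was low in Ugt8a, at 642 with the next at 841. Opalin gave no such value. The group of 3 libraries was not examined in this way.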

How the results depend on the processing

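The averaged genotype comparison called 2 members over 24 libraries. It called 0 with no filter on low values, 1 with edgeR on recovered reads, 4 with library weights, 1 over 20 libraries, and from 0 to 4 when 1 library was left out. Cldn11 lost its call without WT control 2, WT ketogenic 1, 2 or 4, WT MCT 1, 3xTg control 1 or 2, 3xTg ketogenic 2 or 4, or 3xTg MCT 2 or 3 (adjusted p from 0.0108 to 0.0822 over the 24 omissions). Mobp kept it only without WT control 4, WT ketogenic 3, WT MCT 4, 3xTg ketogenic 1 or 5, or 3xTg MCT 4 (0.0113 to 0.0993). Mal gained one without WT ketogenic 3, WT MCT 4, 3xTg ketogenic 5 or 3xTg MCT 4, and Mbp without the first 2 of these. The differences themselves stayed from 0.19 to 0.26 for Cldn11 and from 0.19 to 0.27 for Mobp over the omissions. With the replicate number as a block, 4 members were called (Mbp and Mal joined), but the numbers did not pair the libraries: same-numbered libraries correlated at a mean r of 0.006 over 55 pairs. Within the ketogenic diet the count moved from 0 to 1 (Opalin) over 21 libraries with limma and with edgeR. Of 532 recomputed counts of called members, over 14 comparisons, 503 equalled the count first reported, and no called difference changed sign. Only the averaged genotype comparison had a call at first over 24 libraries, and most of its recomputed counts differed from 2. An equal count can hide other members: over 21 libraries it was again 2, but Opalin had taken the place of Mobp. Of 4787 recomputed differences 181 changed sign, none of them called. The cause of these changes was not tested. Depth limits Opalin most, at 10 reads in the shallowest library.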

Other observations

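Within 500000 bases of Opalin on chromosome 19 the annotation holds 12 other genes of the table, 10 of them tested. In the averaged genotype comparison Blnk, an adaptor protein of B cell receptor signalling, stood at -0.80 ± 0.12 (log2, SE; adjusted p of 0.000453 in limma), and at -1.01 over the 21 libraries. Entpd1, an enzyme that breaks down extracellular ATP, stood at 0.29 ± 0.07 (0.00832) and Tm9sf3 at 0.11 ± 0.03 (0.0183). The 7 others were not called, in a comparison that called 8.1% of all tested genes over 24 libraries. These neighbours were looked at after their values had been seen.

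The genes whose levels within groups followed Opalin most closely over 24 libraries were Clec3b, with r of 0.883, and the oligodendrocyte genes Pllp (0.881), a membrane protein of myelin, and Aspa (0.880), the enzyme that breaks down N-acetylaspartate. Over the 21 libraries these were 0.740, 0.787 and 0.758. The order changed there: of the 10 genes closest over 24 libraries, Tst had the highest r over the 21, 0.824.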
